A study of Mus musculus with 6 samples.

Results

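CircRNAs that derive from genes of ion channels and neurotransmitter receptors were examined in the striatum of mice without HuD. A circRNA is a ring of RNA made when pre-mRNA is back-spliced, joining the end of an exon to the start of an earlier one. The array held 14236 circRNA probes, and 3056 of them carry an annotation in the deposited up and down tables or in the list of HuD-bound circRNAs from the study. Of these, 79 circRNAs from 59 host genes were taken because the gene symbol starts with a channel or receptor prefix such as Kcn, Cacn, Scn, Gria, Grik, Grin, Grid, Grm, Gabr, Itpr, Ano or Trpc. The down table gave 28 members, the up table gave 38 and the HuD-bound list gave 14, with Kcnc2 mmu_circRNA_22632 in both the up table and the HuD-bound list. The remaining probes have no host gene name in the sources used here, so other circRNAs of the same genes may be on the array unnamed.

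The arrays compared 3 HuD KO (Elavl4 -/-) mice with 3 wild type (WT) littermates, all adult males of the C57BL6 strain, with striatal total RNA treated with RNase R and labelled with Cy3. The -/- genotype is not limited to a cell type, so the design does not give the cells in which HuD was lost. The HuD-bound list came from other mice, which overexpress a myc-tagged HuD transgene and from which the tag was immunoprecipitated in pools of mice. In a bulk tissue, fewer cells of a type and less RNA per cell cannot be told apart.

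Ion channels set the membrane potential and firing of neurons, and ionotropic receptors open a channel when a transmitter binds. Metabotropic receptors act through G proteins instead. Striatal projection neurons integrate cortical glutamate with local GABA, acetylcholine, serotonin and dopamine. HuD is a neuronal RNA-binding protein of the ELAV family that binds AU-rich and U-rich stretches and is best known for stabilizing mRNAs.

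The 60-base sequences listed with the HuD-bound members, other than Grm5 mmu_circRNA_41814 and Kcnma1, are shown where they are reported here. Of the members, only the HuD-bound ones are given a test, because their list did not come from this contrast. Capitals mark ATTTA, an AU-rich pentamer, searched on the given strand.
Gabrb2 mmu_circRNA_23246: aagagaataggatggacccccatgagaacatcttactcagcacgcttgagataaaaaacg
Cacna1e mmu_circRNA_21033: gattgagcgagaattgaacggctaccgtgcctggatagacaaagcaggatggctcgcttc
Cacna2d1 mmu_circRNA_38123: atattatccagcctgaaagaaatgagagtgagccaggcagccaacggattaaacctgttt
Cacnb4 mmu_circRNA_33561: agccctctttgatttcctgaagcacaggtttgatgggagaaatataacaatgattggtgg
Cacng3 mmu_circRNA_42273: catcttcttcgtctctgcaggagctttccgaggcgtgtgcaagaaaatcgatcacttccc
Gria2 mmu_circRNA_35637: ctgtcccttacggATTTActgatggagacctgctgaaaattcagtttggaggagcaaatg
Gria2 mmu_circRNA_35640: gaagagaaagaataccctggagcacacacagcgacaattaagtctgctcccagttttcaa
Grid1 mmu_circRNA_016254: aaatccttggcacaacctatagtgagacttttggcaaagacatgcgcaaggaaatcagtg
Grm5 mmu_circRNA_41820: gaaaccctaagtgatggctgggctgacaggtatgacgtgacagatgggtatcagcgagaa
Kcnab1 mmu_circRNA_35508: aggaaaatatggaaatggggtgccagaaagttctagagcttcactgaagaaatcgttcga
Kcnc2 mmu_circRNA_22632: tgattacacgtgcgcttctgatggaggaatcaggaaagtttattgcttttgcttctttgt
Only the Gria2 mmu_circRNA_35637 sequence held ATTTA among the 14 HuD-bound members, and none held TTTTT. Over all 79 members, 4 (5.06%) held ATTTA, against 127 of the 3056 annotated circRNAs (4.16%). TTTTT was found in 3 members (3.80%) and in 157 of the 3056 (5.14%). These windows cover the listed bases alone and not the whole ring.

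Each array had 84.0% to 96.7% of its circRNA probes well above background, and no spot was saturated. All 79 members were kept in the fit and 74 of them were above background by this flag on each of the 6 arrays. The WT arrays came from a single scan and the HuD KO arrays from 2 others, with replicate 3 on its own, so scan and genotype cannot be told apart. Elavl4 itself had no named circRNA probe, so the genotype labels were not checked here. Of the marker lists, 5 circRNAs of striatal projection neuron genes were named (3 of Foxp1, 1 of Bcl11b and 1 of Adcy5), and each of the 5 had a signal well above background on every array. The defining markers Drd1, Drd2, Ppp1r1b and Rgs9 had no named probe, and nor had any oligodendrocyte or microglial marker. The part of cell makeup in the results was not tested.

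With arrays scaled on their 75th percentile, 10 of the 14 HuD-bound members rose in HuD KO, 0 fell and 4 did not pass the test (limma, Benjamini-Hochberg adjusted p under 0.05 over 13445 probes). The 10 changes lay between 0.45 and 1.09 on the log2 scale, or 1.37-fold to 2.13-fold. The shares over all tested probes were 26.2% higher and 37.2% lower. At an unadjusted p under 0.05 (limma), 12 of the 14 were higher and 0 were lower. At that threshold 3809 of all 13445 tested probes were higher and 5224 lower. Of the other 643 HuD-bound circRNAs, 293 were higher and 99 lower. The median log2 change was 0.68 in these 14, 0.35 in the other 643 HuD-bound circRNAs tested and -0.11 over all probes. Of those other HuD-bound circRNAs, 42.0% were called higher and 14.3% lower. When arrays were scaled on 14 circRNA control probes in place of the 75th percentile, the direction flipped to a median of -0.10, with 0 called higher and 2 called lower, while the median of all probes moved to -0.89. Of all tested probes, 4.55% were called higher under that scaling, and higher calls were 6.73% of all calls. Kcnc2 was also selected by this contrast through the up table, so its change alone is not independent of the selection.

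The level of a probe moved with its change. The WT levels of the 14 lay between -1.46 and 3.13, in deciles 5 to 10 of all probes ordered by level, where the share called higher went from 24.2% to 39.5%. In decile 1, the dimmest, it was 19.6%. The part of signal level in the result was not tested.

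**Figure D1:**
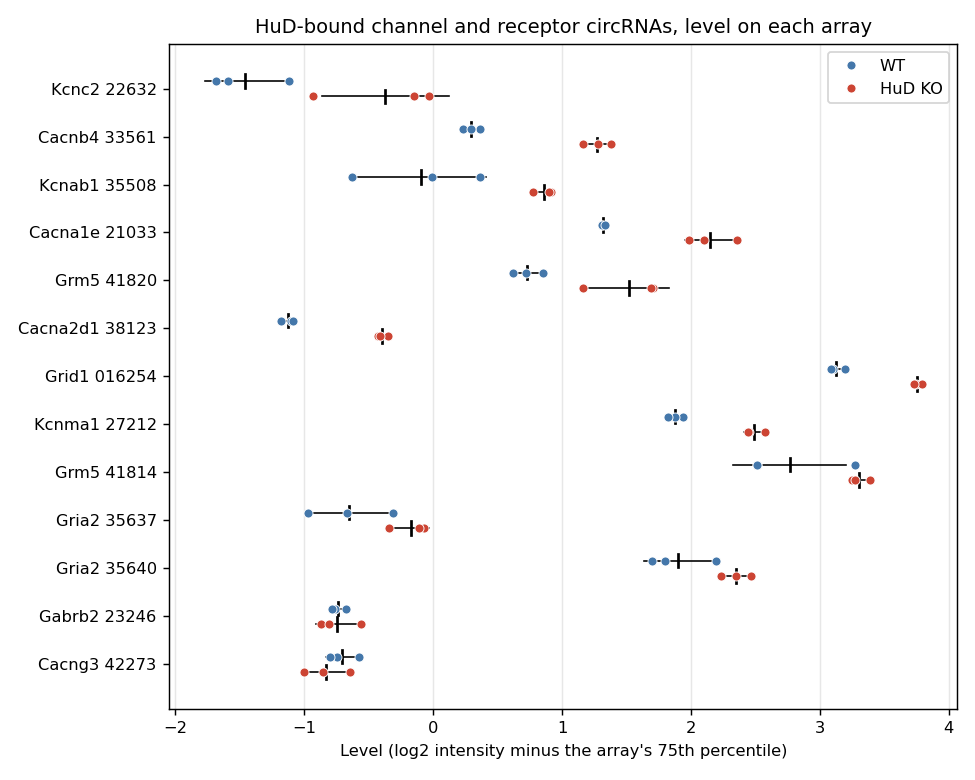
Levels of 13 of the HuD-bound circRNAs on each array (x axis, log2 intensity minus the 75th percentile of the array), ordered by change. Points are arrays, ticks are means and bars are 1 SD, and in 9 circRNAs every HuD KO point lies above every WT point.

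All HuD KO arrays exceeded all WT arrays in 10 of the 14, against 46.7% of the other HuD-bound circRNAs and 29.8% of all probes. The reverse order held for 0 of the 14, 121 of the other 643 HuD-bound circRNAs and 40.4% of all probes. Of the 4 calcium channel members 3 rose. With control probe scaling all 3 lost their calls (limma), Cacnb4 at 0.20 (adjusted p = 0.33), Cacna1e at 0.046 (0.81) and Cacna2d1 at -0.053 (0.81). Under that scaling Cacng3 was called lower (-0.91, limma adjusted p = 0.0091). Cacnb4 mmu_circRNA_33561 (chr2:52464609-52469607, exonic), from the gene of a cytoplasmic beta subunit, had levels of 1.38, 1.27 and 1.17 in HuD KO and 0.23, 0.36 and 0.29 in WT. The groups did not overlap and it rose by 0.98 ± 0.13 in log2 (SE, limma adjusted p = 0.00051). Cacna1e mmu_circRNA_21033 (chr1:154493301-154725920), from the gene of the R-type pore subunit, had levels of 2.36, 2.10 and 1.98 in HuD KO against 1.31, 1.31 and 1.33 in WT. Its change was 0.83 ± 0.15 (limma adjusted p = 0.0018), larger than the spread of either group. Cacna2d1 mmu_circRNA_38123 (chr5:16212875-16246797), from the gene of an auxiliary subunit bound by gabapentin, had levels of -0.42, -0.35 and -0.41 in HuD KO and -1.18, -1.10 and -1.09 in WT. It rose by 0.73 ± 0.13 (limma adjusted p = 0.0016), and by 0.40 with normexp (limma adjusted p = 0.0052). Cacng3 mmu_circRNA_42273, from the gene of a transmembrane AMPA receptor regulatory protein, had overlapping groups, with -0.86, -1.0 and -0.65 in HuD KO and -0.57, -0.75 and -0.80 in WT (log2 change -0.13, limma adjusted p = 0.49).

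The potassium channel members on the HuD-bound list all rose. With control probe scaling none of them kept its call, and Kcnma1 moved to -0.17. Kcnab1 mmu_circRNA_35508, from the gene of a Kv beta subunit, had levels of 0.91, 0.90 and 0.78 in HuD KO and 0.36, -0.01 and -0.63 in WT. The WT arrays spread most here, and the change was 0.95 ± 0.24 (limma adjusted p = 0.0098). Kcnma1 mmu_circRNA_27212, from the gene of the BK channel, had levels of 2.58, 2.45 and 2.44 in HuD KO and 1.94, 1.87 and 1.82 in WT (change 0.61 ± 0.13, limma adjusted p = 0.0042), and with quantile normalization its change was 0.40 (limma adjusted p = 0.031). Kcnc2 mmu_circRNA_22632, from the gene of a fast Kv3 channel, had levels of -0.15, -0.03 and -0.94 in HuD KO and -1.59, -1.69 and -1.12 in WT. HuD KO replicate 3 lay near the WT arrays, and the change was 1.09 ± 0.27 (limma adjusted p = 0.0085), or 0.65 with normexp (limma adjusted p = 0.0049). The calls of Kcnab1 and Kcnc2 were lost with the methods' t-test (adjusted p = 0.054 for each), and that of Kcnab1 with scan as a random block (limma adjusted p = 0.053).

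For the receptors, Gabrb2 mmu_circRNA_23246, from the gene of a GABA-A beta subunit, had a mean of -0.74 in both groups (limma adjusted p = 0.99). With control probe scaling Gabrb2 was called lower (-0.79, limma adjusted p = 0.0048). Grid1 mmu_circRNA_016254, from the gene of a delta-type glutamate receptor, was the brightest of the 14 in WT. Its levels were 3.74, 3.79 and 3.73 in HuD KO and 3.11, 3.09 and 3.19 in WT (change 0.63 ± 0.13, limma adjusted p = 0.0032). With quantile normalization the change of Grid1 was 0.35 (limma adjusted p = 0.044).

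Grm5, which encodes the group I receptor mGlu5, gave 2 rings that share no bases on the chromosome. Levels of mmu_circRNA_41820 were 1.71, 1.69 and 1.16 in HuD KO and 0.62, 0.72 and 0.85 in WT (change 0.79 ± 0.19, limma adjusted p = 0.0067). Levels of mmu_circRNA_41814 were 3.25, 3.28 and 3.39 in HuD KO and 2.52, 2.51 and 3.27 in WT, so the groups overlapped through WT replicate 3. Its change of 0.54 did not pass the test (limma adjusted p = 0.064), and without WT replicate 3 it was 0.79 (limma adjusted p = 0.0040).

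Gria2, which encodes the AMPA receptor subunit that limits calcium entry, also gave 2 rings. Levels of mmu_circRNA_35640 were 2.47, 2.35 and 2.23 in HuD KO and 1.69, 1.80 and 2.19 in WT (change 0.45 ± 0.17, limma adjusted p = 0.048). This call stood closest to the threshold and was lost without HuD KO replicate 1 (adjusted p = 0.12) or 2 (0.11) and without WT replicate 1 (0.16) or 2 (0.15). It was changed by 13 of 22 alternatives in all, among them quantile normalization (0.24, adjusted p = 0.25), scan as a random block (adjusted p = 0.16) and the methods' t-test (adjusted p = 0.084). Levels of mmu_circRNA_35637, the ring with ATTTA in its window, were -0.34, -0.07 and -0.11 in HuD KO and -0.97, -0.67 and -0.31 in WT. Its change of 0.48 did not pass (limma adjusted p = 0.062), and without WT replicate 3 it did (0.65, adjusted p = 0.019).

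**Figure D2:**
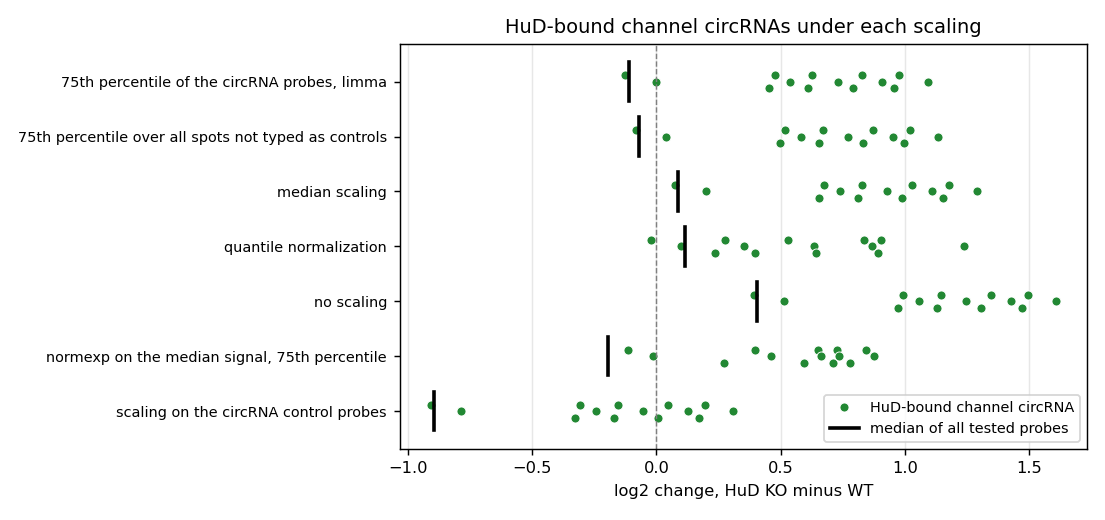
Change of each HuD-bound circRNA (points, x axis in log2) under each way of scaling the arrays, with the median of all tested probes as a bar. Median scaling, no scaling and control probes shift the points and the bar together. With quantile normalization the bar is at 0.11 and the median of the 14 at 0.58, against -0.11 and 0.68 in the main values. With control probes the median of the 14 is -0.10 while that of all probes is -0.89.

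The tables were made from this contrast, so the changes of their members are given as a description with no test. The 28 down members lay between -5.42 and -1.05 with a median of -1.72, and the 38 up members between 0.94 and 2.46 with a median of 1.37. All down table circRNAs that were tested had a median of -1.99, and all up table circRNAs a median of 1.33. Each table member kept its direction under each scaling alternative. This follows from their choice at about 2-fold on these arrays and is no separate support. Members near the 2-fold threshold of the tables were Ano6 mmu_circRNA_29033 (-1.05) and Trpc4 mmu_circRNA_35357 (-1.10) on one side and Gabra5 mmu_circRNA_41462 (0.94) and Trpc1 mmu_circRNA_44806 (1.03) on the other. Of the HuD-bound members outside the tables, Cacnb4 mmu_circRNA_33561 was the nearest to the threshold, at 0.98. In 23 of the 28 down members HuD KO replicate 3, the array scanned on its own, lay nearest to the WT mean. Among up members this held for 19 of the 37 with values on replicates 1 and 3. The same count was not made over all probes, so it cannot be called particular to these members.

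**Figure D3:**
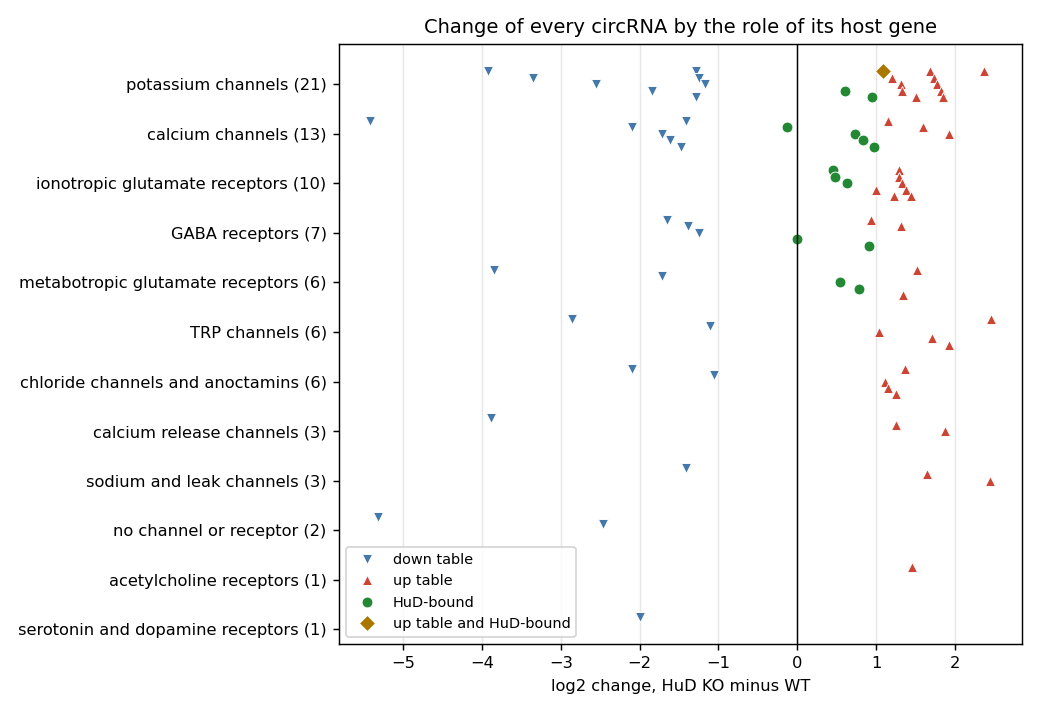
Change of every member (x axis, log2 HuD KO minus WT) by the role of its host gene, with the number of members in brackets and the symbol giving the source of each. Ionotropic glutamate receptor members lie above 0 throughout, between 0.45 and 1.45, while most other groups lie on both sides. Of these receptor members, 7 of 10 came from the up table, which fixed their side.

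The ionotropic glutamate receptor genes gave 10 members, 7 from the up table, 3 HuD-bound and 0 from the down table. All 10 were higher in the main values, but the up table fixed the side of its 7. The 3 HuD-bound ones were free to lie on either side, and with control probe scaling they were lower. Grik1 mmu_circRNA_29995, from a kainate receptor gene, had the highest change at 1.45, with levels of -0.40, -0.31 and -1.08 in HuD KO and -2.30, -2.14 and -1.69 in WT. Others in the up table came from Gria4 (1.29), Grin2b (1.29), Grin3a (1.23) and a pair from Grik3 (1.33 and 1.38). Metabotropic glutamate receptors were mixed, with 2 members in the down table, Grm3 and Grm8 in the up table and both Grm5 rings on the HuD-bound list. Grm3 mmu_circRNA_38099 had the highest change of these (1.52).

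Potassium channel genes gave 21 members from 14 genes, 8 in the down table, 11 in the up table and 3 HuD-bound, with Kcnc2 counted in both. The member of the M-current gene Kcnq3 (-1.84) was in the down table. Members of the ether-a-go-go type genes Kcnh5 (1.51 and 1.82) and Kcnh7 (1.68) were all in the up table. The Kv3 genes were divided, with Kcnc1 at -1.24 and Kcnc4 at -1.18 but Kcnc2 at 1.09. The lowest potassium channel member measured on all arrays was Kcnmb2 mmu_circRNA_35216, from a BK beta subunit gene, with levels of -0.70, -1.05 and 0.06 in HuD KO and 1.91, 2.05 and 2.0 in WT.

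Kcnt2, which encodes a sodium-activated potassium channel, gave 5 rings on chromosome 1, more than any other host gene, and all 5 were in the up table. Changes were 1.73 for mmu_circRNA_012594, 1.77 for mmu_circRNA_016043, 1.85 for mmu_circRNA_20964, 2.37 for mmu_circRNA_20969 and 1.33 for mmu_circRNA_20971. The first pair starts at the same base, and their sequences are shown because 44 of 60 bases (capitals) are shared, so the probes may not separate the rings.
Kcnt2 mmu_circRNA_012594: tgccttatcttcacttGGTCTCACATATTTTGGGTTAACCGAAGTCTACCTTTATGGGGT
Kcnt2 mmu_circRNA_016043: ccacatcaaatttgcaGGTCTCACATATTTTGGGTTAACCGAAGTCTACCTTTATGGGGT
Levels of mmu_circRNA_016043 (chr1:140362948-140450304) were 4.81, 4.69 and 4.75 in HuD KO and 2.93, 2.90 and 3.12 in WT. Levels of mmu_circRNA_20969 (chr1:140484124-140553071) were -0.64, -0.79 and -0.54 in HuD KO and -3.14, -3.04 and -2.90 in WT. Neither pair of groups overlapped, but both rings were chosen for a rise on these arrays. Of all tested probes, 29.8% had every HuD KO array above every WT array.

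**Figure D4:**
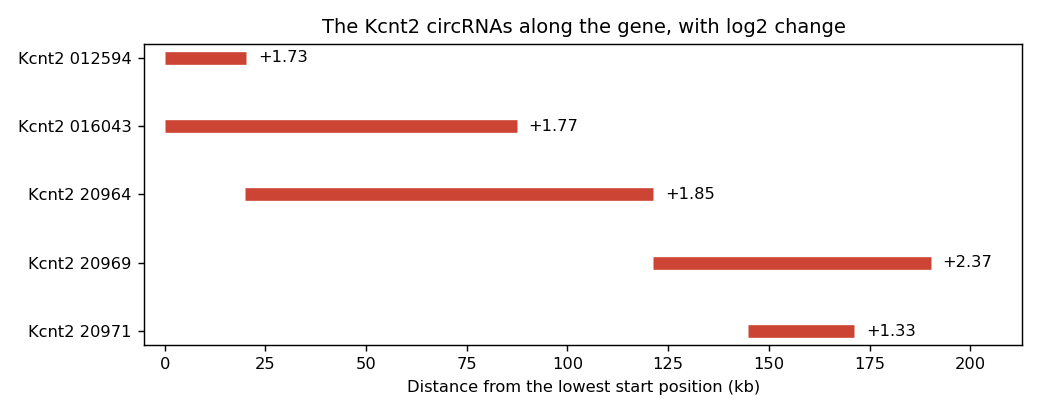
The 5 Kcnt2 circRNAs drawn to scale from their lowest start (x axis, kb), with the log2 change of each, HuD KO minus WT. All 5 were higher in HuD KO, from 1.33 to 2.37, and mmu_circRNA_012594 and mmu_circRNA_016043 start at the same place.

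Rings of the same host that share an end were also found for the cation channel genes Trpc6 and Trpc1, and their shared bases are in capitals.
Trpc6 mmu_circRNA_013636: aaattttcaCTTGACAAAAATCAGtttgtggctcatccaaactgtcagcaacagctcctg
Trpc6 mmu_circRNA_43742: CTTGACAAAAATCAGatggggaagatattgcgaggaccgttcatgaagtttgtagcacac
Trpc1 mmu_circRNA_44806: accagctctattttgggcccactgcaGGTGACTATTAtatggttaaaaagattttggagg
Trpc1 mmu_circRNA_44807: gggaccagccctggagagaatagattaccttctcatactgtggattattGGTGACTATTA
The Trpc6 pair had changes of 1.93 and 2.46 and the Trpc1 pair 1.03 and 1.70. Trpc6 mmu_circRNA_43742 had the highest change of all members, with levels of 3.98, 3.97 and 4.16 in HuD KO and 1.28, 1.40 and 2.04 in WT. Trpc4 mmu_circRNA_35357 (-1.10) and Trpm6 (-2.86) were in the down table.

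Calcium channel genes gave 13 members, 6 in the down table, 3 in the up table and 4 HuD-bound. Cacnb2 mmu_circRNA_33003 (chr2:14981305-14984439, exonic), from a beta subunit gene, had the lowest change of all members at -5.42. Its levels were -0.71, -0.81 and 1.05 in HuD KO and 5.14, 5.48 and 5.17 in WT. The SD was 1.05 in HuD KO, where replicate 3 stood above the other two. Cacna2d1 gave 3 rings that were all higher, mmu_circRNA_006797 (1.93) and mmu_circRNA_38126 (1.60) from the up table beside the HuD-bound ring. With control probe scaling the HuD-bound ring was at -0.05 and not called. Kcnab1 likewise had an up table ring, mmu_circRNA_35506 (1.20), beside its HuD-bound one.

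Of the other roles, Scn1a mmu_circRNA_33720, from a sodium channel gene, was at 2.45, and Scn8a mmu_circRNA_29098 at -1.41. Unc80 mmu_circRNA_20282 (1.65) rests on 1 HuD KO array, since 2 of its HuD KO spots were flagged as outliers. Gabra4 mmu_circRNA_38750 was at 1.32 and Gabrb1 mmu_circRNA_38752 at -1.65. Chrm3 mmu_circRNA_26003, from a muscarinic receptor gene, was at 1.46, and Htr2c mmu_circRNA_45789, from a serotonin receptor gene, was at -1.99. Clcn7 mmu_circRNA_30332, from a lysosomal chloride transporter gene, was at -2.10. The prefixes also took Htra1 mmu_circRNA_42391 (-2.47), from a serine protease gene, and Kcnq1ot1 mmu_circRNA_42484 (-5.32), from an antisense long noncoding RNA, which encode no channel or receptor.

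In 3 host genes described here, rings stood on opposite sides of WT. The sequences of 2 such pairs show that the probes read different junctions.
Itpr2 mmu_circRNA_41059: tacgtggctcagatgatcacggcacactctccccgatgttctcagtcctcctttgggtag
Itpr2 mmu_circRNA_41061: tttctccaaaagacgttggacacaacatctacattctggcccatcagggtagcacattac
Ano6 mmu_circRNA_29029: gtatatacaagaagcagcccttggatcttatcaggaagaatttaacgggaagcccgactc
Ano6 mmu_circRNA_29033: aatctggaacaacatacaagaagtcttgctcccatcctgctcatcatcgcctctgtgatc
Itpr2 encodes an inositol trisphosphate receptor that releases calcium from the endoplasmic reticulum. Its mmu_circRNA_41059 had levels of 5.38, 5.13 and 5.88 in HuD KO and 3.42, 3.62 and 3.73 in WT. Its mmu_circRNA_41061 had levels of -6.31, -5.50 and -5.79 in HuD KO and -1.97, -1.73 and -2.26 in WT, and was well above background on 1 of 3 HuD KO arrays. For Ano6, which encodes a calcium-activated scramblase, mmu_circRNA_29029 was at 1.37 and mmu_circRNA_29033 at -1.05. For Cacna1e, mmu_circRNA_21040 from the down table was at -1.48. Its span on the chromosome lies within that of the HuD-bound ring, at 0.83. In each of the 3 pairs the lower ring had the shorter span from start to end on the chromosome. Spans were 17237 against 36247 bases in Itpr2, 1685 against 21656 in Ano6 and 6981 against 232619 in Cacna1e. The lengths of the rings themselves were not measured.

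**Figure D5:**
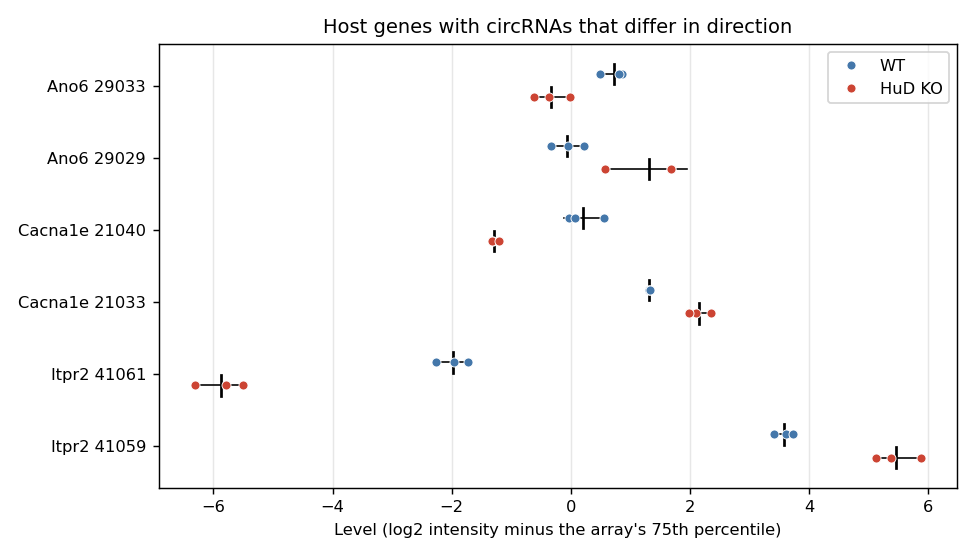
Levels on each array (x axis, log2 intensity minus the 75th percentile of the array) of the rings of 3 host genes, with points for arrays, ticks for means and bars for 1 SD. Within each gene one ring is lower and the other higher in HuD KO.

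Low signal limits 5 down members, which were not well above background on every HuD KO array. Among them, Itpr2 mmu_circRNA_41061 was above it on 1 of 3, and Trpm6 and Kcnn2 on 2 of 3.

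The members of the 2 tables also differed in features that the rule did not use. Of the up members 35 of 38 (92.1%) were exonic, against 83.2% of the whole up table, and of the down members 20 of 28 (71.4%), against 66.0%. The median span on the chromosome was 27269 bases for up members and 6377 bases for down members, against 17457 and 8034 bases in the whole tables. The median GC content of the deposited sequence was 43.3% for up members and 45.8% for down members, close to the 43.3% and 46.7% of the whole tables. The tables list predicted microRNA sites, and mmu-miR-8104 was listed for 6 of the 66 table members (9.09%) and for 17 of all 2488 table circRNAs (0.683%). Its mature sequence, from RefSeq and with the seed in capitals, is shown because it was the microRNA listed for the most members.
mmu-miR-8104: cAGGAUGAgguggagugcagcg
The 6 include the 2 Kcnt2 rings with shared bases, so they are not 6 separate sequences.

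Proteins that anchor, traffic or release transmitter beside channels gave 36 HuD-bound circRNAs from 25 genes, by a list of 66 genes. Of these, 25 rose, 2 fell and 9 did not pass, with a median log2 change of 0.87, where 26.2% of all tested probes were higher and 37.2% lower. Of the HuD-bound circRNAs outside the channel and receptor genes, which include these 36, 42.0% were higher and 14.3% lower, with a median of 0.35. The rises included Camk2a mmu_circRNA_31794 (1.79, limma adjusted p = 0.00014) and Erc2 mmu_circRNA_016816 (1.76, limma adjusted p = 0.00040), which were also in the up table. The falls were Camk2d mmu_circRNA_36123 (-0.55, limma adjusted p = 0.030) and Dlgap1 mmu_circRNA_011419 (-0.52, limma adjusted p = 0.0098). With control probe scaling the split turned to 6 higher and 9 lower. Under that scaling 4.55% of all tested probes were called higher, and higher calls were 6.73% of all calls.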

How the data were processed

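Striatal RNA of 3 HuD KO and 3 WT mice was measured on 1-colour circRNA arrays. The deposited array files hold spot intensity, background-corrected within the array by Agilent Feature Extraction and not normalized between arrays. The authors' tables give p-values, FDR, fold changes and log2 intensities of their own comparison, and these were not used, nor were 24 per-sample columns. Names, positions, classes, sequences and microRNA sites were taken from them. The genome build is not given in the sources used here, and all 79 members lay inside their gene in a GRCm38 gene table. The HuD-bound list as used holds 658 circRNAs and the remainder is not analysed here.

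Values are log2 intensity minus the 75th percentile over circRNA probes, with outlier spots left out. Probes well above background on all 3 arrays of a group and with at least 4 values were fitted with limma 3.58.1 in R 4.3.3 without covariates, with Benjamini-Hochberg adjustment over 13445 probes. The fit was tested on simulated data. The number of arrays limits the precision. P-values measure the spread between these samples. Members and lists were chosen with earlier results of these data known. Circular RNAs named are all HuD-bound members, the extreme changes of each role among members measured on all arrays, hosts with 3 or more rings or with rings from 2 sources, and members that encode no channel, and others were named after their values were seen. Some members and genes that this rule names are counted but not reported here. Same-numbered arrays did not deviate together (correlations -0.0094, -0.029 and -0.078). Normexp was run on the median signal, a choice made after seeing the data.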

Additional observations from a re-analysis of the deposited data

How the results depend on the processing

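The count of 10 higher HuD-bound circRNAs was between 7 and 12 under all alternatives except 2, and the count of lower ones was 0 in all but one. With scaling on the control probes, 0 were higher and 2 lower, and at the study's threshold of 2-fold and unadjusted p of 0.05, 1 was higher. The median change of the 14 was 0.88 with median scaling, 1.20 with no scaling, 0.44 with normexp and quantile normalization, 0.49 with quantile normalization of the uncorrected intensity and -0.10 with control probes. Control probes also turned Cacna2d1 mmu_circRNA_38123 to -0.053, Gria2 mmu_circRNA_35640 to -0.33, Grid1 mmu_circRNA_016254 to -0.16 and Kcnma1 mmu_circRNA_27212 to -0.17. The median of all probes was 0.09 with median scaling, 0.11 with quantile normalization, 0.41 with no scaling and -0.89 with control probes. All probes gave 3522 higher and 4997 lower calls, 5348 and 2552 with no scaling, 612 and 8480 with control probes and 1268 and 3289 at the fold threshold. Higher calls were 41.3% of all calls, 54.2% with quantile normalization, 52.2% with median scaling, 67.7% with no scaling and 6.73% with control probes. For the partner circRNAs, 25 higher and 2 lower calls became 6 and 9 with control probes and 12 and 0 at the fold threshold. The lower calls were 4 with normexp, 0 with median scaling, 0 with no scaling, 1 with the replicate block and 1 with scan as a random block. Leaving out 1 array gave 9 to 12 higher and 0 lower HuD-bound circRNAs with medians from 0.66 to 0.72, 18 to 26 higher and 1 to 2 lower partners, and 2753 to 3879 higher and 4331 to 5291 lower probes. The same-numbered arrays share only a number, and with the replicate block 9 HuD-bound circRNAs were higher, Gria2 mmu_circRNA_35640 losing its call (adjusted p = 0.093). The cause of these shifts was not tested.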
